A study of Mus musculus with 6 samples.

Results

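The MAP kinase phosphatases of the Dusp family were followed after exposure of ID8 cells, an established ovarian cancer line of the mouse, to the chemokine CCL6. The genes were chosen by name, as Dusp1, Dusp2, Dusp4, Dusp5, Dusp6, Dusp7, Dusp8 and Dusp10. All 8 were found, on 1 probe set each, among 19505 named genes of the array. The cells had been deprived of serum for 24 h. CCL6-stimulated cells then received 200 ng/mL of recombinant CCL6 in serum-free medium for 6 h (n = 3), and unstimulated cells received no CCL6 (n = 3). For the unstimulated cells 0 h is recorded, and whether they spent the same further 6 h in serum-free medium was not established here. Each group held 3 samples described as biological replicates, with 1 Clariom S array each, so p-values measure the spread between these samples of 1 established cell line at 1 dose and 1 time. Values are given on a scale taken to be log2, on which 1 unit is a doubling, and the number of arrays limits their precision.

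MAP kinases are switched on by phosphorylation of a threonine and a tyrosine in their activation loop. MAP kinase phosphatases remove both phosphates and so turn the signal off. Several of their genes are themselves transcribed in response to MAP kinase activity, which closes a negative feedback loop. Dusp1, Dusp2, Dusp4 and Dusp5 encode inducible nuclear enzymes, of which DUSP5 acts on ERK alone and DUSP1 also acts on JNK and p38. Dusp6 and Dusp7 encode cytoplasmic phosphatases that prefer ERK, and Dusp8 and Dusp10 encode phosphatases that prefer JNK and p38. The study measured ERK phosphorylation after CCL6 and asked which pathways the chemokine sets in motion, and these genes are among the transcripts that report on such signalling.

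The main division among the arrays did not follow the treatment labels. On the first principal component of the 12547 probe sets above background, 7 of the Dusp genes among them, which accounted for 50.8% of the variance, CCL6 replicates 1 and 2 scored 23.4 and 34.9 and unstimulated replicate 3 scored 46.1. CCL6 replicate 3 scored -40.5, and unstimulated replicates 1 and 2 scored -34.1 and -29.7. The mean of 11 proliferation genes moved with this division. It was 12.99 and 13.58 in CCL6 replicates 1 and 2 and 13.30 in unstimulated replicate 3, against 11.66 in CCL6 replicate 3 and 11.73 and 12.07 in unstimulated replicates 1 and 2. CCL6 replicate 3 and unstimulated replicate 3 thus lay with arrays of the other group. The labels name no batch and do not allow an exchange of these samples to be told apart from other differences between the cultures or arrays, and the part of this division in any result below was not tested. Of the 11 proliferation genes, 10 had a higher mean after CCL6, and their log2 differences had a median of 0.44. All 9 markers of ovarian surface epithelium and ID8 cells lay above background in at least 1 group, whereas 0 of 5 macrophage and 0 of 3 endothelial markers did. Background was set at 4.85, below which 95% of 1452 probe sets for olfactory, vomeronasal and taste receptors had their mean. In RNA of whole cultures, fewer cells that express a gene and less of its RNA per cell cannot be told apart.

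Promoter sequences of RefSeq (GRCm38.p6, 250 bases before to 50 bases after the annotated start) were found for 7 of the 8 genes and for the related Dusp16. They were searched on both strands for the cyclic AMP response element TGACGTCA, which CREB and ATF proteins bind, for the AP-1 site TGANTCA, and for the CArG box of serum response factor. These motifs do not overlap each other in the windows shown. The cyclic AMP response element occurred in Dusp1 and Dusp8, against 1.79% of 32851 promoters. The CArG box occurred in Dusp5, against 1.63%. The AP-1 site, present in 7.81% of promoters, was in 0 of the 8 windows. The 3 promoters that held a match, those of Dusp1, Dusp5 and Dusp8, are shown with the matches in capitals. The Dusp1 window lies at chr17:26508423-26508722 on the minus strand, with its match ending 135 bases before the start.
Dusp1: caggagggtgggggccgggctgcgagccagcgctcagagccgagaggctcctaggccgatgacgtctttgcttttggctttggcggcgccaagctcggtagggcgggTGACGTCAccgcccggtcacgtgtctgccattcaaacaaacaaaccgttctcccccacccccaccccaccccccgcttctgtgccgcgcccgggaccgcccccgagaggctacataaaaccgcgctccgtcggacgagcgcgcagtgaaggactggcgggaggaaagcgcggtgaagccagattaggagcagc
The Dusp5 window lies at chr19:53528895-53529194 on the plus strand and holds 2 adjacent CArG boxes, which end 72 and 62 bases before the start.
Dusp5: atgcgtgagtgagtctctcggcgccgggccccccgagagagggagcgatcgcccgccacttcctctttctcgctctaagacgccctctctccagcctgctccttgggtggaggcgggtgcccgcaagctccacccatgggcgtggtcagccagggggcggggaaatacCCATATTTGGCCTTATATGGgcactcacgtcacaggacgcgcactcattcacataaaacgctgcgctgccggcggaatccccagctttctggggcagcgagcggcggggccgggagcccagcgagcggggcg
The Dusp8 window lies at chr7:142095235-142095534 on the minus strand and holds 2 cyclic AMP response elements, which end 99 and 55 bases before the start.
Dusp8: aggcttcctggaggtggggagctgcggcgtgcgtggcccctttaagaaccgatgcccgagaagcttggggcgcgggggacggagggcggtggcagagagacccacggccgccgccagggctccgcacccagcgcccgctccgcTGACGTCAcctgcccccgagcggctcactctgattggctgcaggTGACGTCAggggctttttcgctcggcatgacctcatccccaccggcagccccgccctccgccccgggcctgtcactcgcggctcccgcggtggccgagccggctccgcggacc
A match describes these letters and does not show that a factor was bound in ID8 cells.

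Across the 8 genes the mean was higher after CCL6 in every case, but none passed the test. With limma over all 22206 probe sets, 0 of the 8 genes had an adjusted p under 0.05 (adjusted p = 0.999 for each), and 0% of all probe sets did (1 probe set with the methods' t-test, which was none of the 8). At an unadjusted p under 0.05 the count was 0 of 8, where 3.08% of all probe sets had such a p, and by the methods' t-test it was 1 of 8, where 3.66% of all probe sets had one. That gene was Dusp2, which was not above background, and 0 of 8 passed this test after adjustment. The mean was higher after CCL6 for 48.5% of all probe sets. The median log2 difference of the 8 genes was 0.34, and it was 0.46 for the 7 that lay above background. The value for those 7 was close to the 0.44 of the proliferation genes. Over all probe sets above background the median was 0.01 and the interquartile range ran from -0.20 to 0.22. With 3 arrays against 3, an exact two-sided permutation test cannot give a p below 0.1, and the 8 genes lay between that value and 1.

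**Figure D1:**
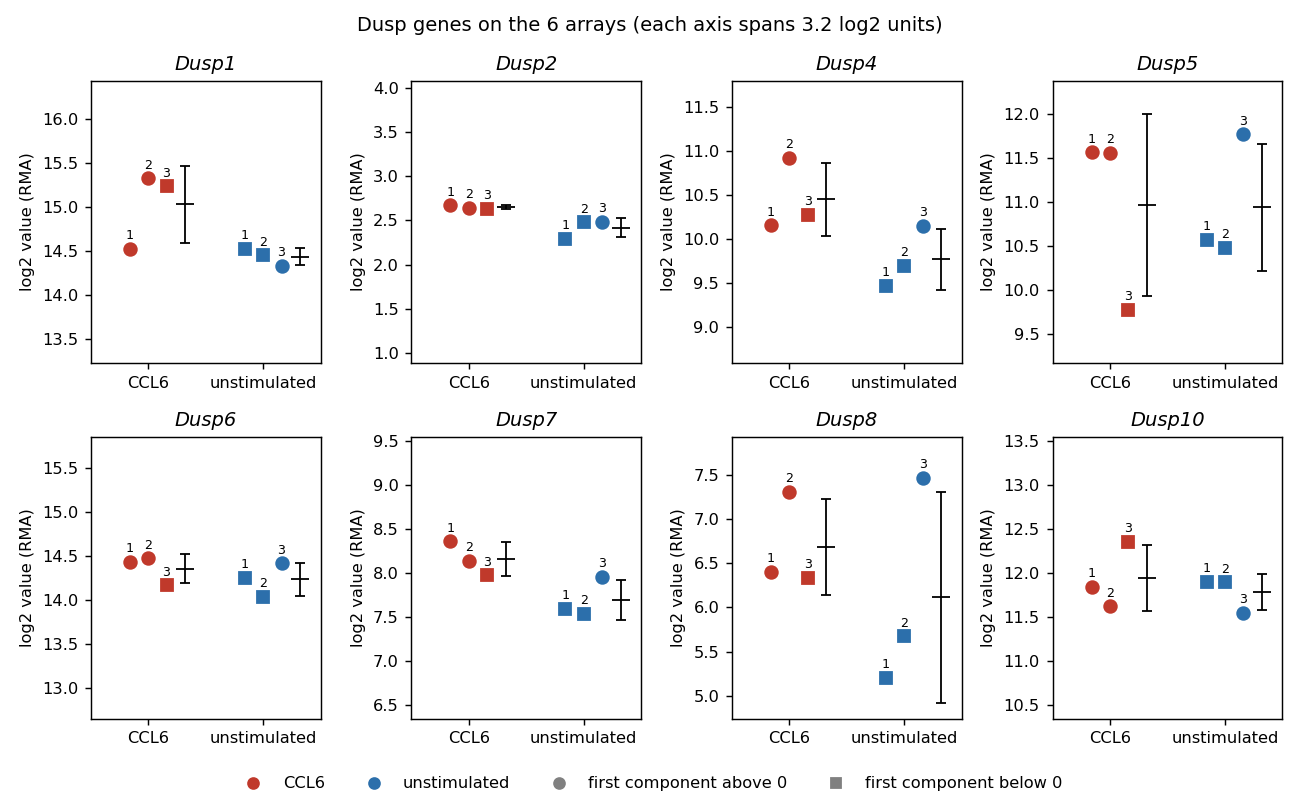
Log2 value of each of the 8 Dusp genes on every array, CCL6 at left and unstimulated at right, with the replicate number above each point and the mean and SD of each group (n = 3) as a black bar. Circles are arrays with a score above 0 on the first component and squares are arrays with a score below 0. Dusp4 and Dusp7 show no overlap between groups, whereas Dusp5 and Dusp8 are spread within both groups.

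The inducible nuclear phosphatase gene Dusp4 had the largest difference of the 8 in the fit of all arrays, though Dusp1 or Dusp8 exceeded it in several of the fits described further on. It read 10.16, 10.92 and 10.27 in CCL6 replicates 1 to 3, against 9.47, 9.69 and 10.15 in unstimulated replicates 1 to 3. All CCL6 arrays lay above all unstimulated arrays, although CCL6 replicate 1 and unstimulated replicate 3 were nearly equal. The means were 10.45 ± 0.41 (SD, n = 3) after CCL6 and 9.77 ± 0.35 (SD, n = 3) in unstimulated cells. This was a 1.60-fold difference, a log2 difference of 0.68 (SE 0.30, 95% interval -0.00 to 1.36; limma, unadjusted p = 0.0513). Among the 3 arrays with positive scores Dusp4 averaged 10.54 in the CCL6 arrays and read 10.15 in the unstimulated array, and among the 3 with negative scores it read 10.27 in the CCL6 array and averaged 9.58 in the unstimulated arrays. Dusp4 was higher after CCL6 on both sides of the division, by 0.39 and 0.69. Because the groups did not overlap, the sign of both was fixed beforehand and adds no support. Dusp4 also followed the division, with the positive arrays above the negative arrays by 0.60 on average. That size was exceeded by 26.8% of probe sets above background, and the groups are unequally represented on each side.

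Dusp1, which encodes the broadly acting nuclear phosphatase, read 14.53, 15.33 and 15.24 in CCL6 replicates 1 to 3, against 14.53, 14.45 and 14.33 in unstimulated replicates 1 to 3. CCL6 replicates 2 and 3 stood above the other 4 arrays, and CCL6 replicate 1 read like unstimulated replicate 1. Its means were 15.03 ± 0.44 after CCL6 and 14.44 ± 0.10 in unstimulated cells (SD, n = 3 each). The difference was 1.51-fold, or 0.59 (SE 0.28, 95% interval -0.04 to 1.22; limma, unadjusted p = 0.0624). The mean of the 3 positive arrays differed from that of the 3 negative arrays by -0.01 for Dusp1, but the groups are unequally represented on each side. Within groups Dusp1 was lower on the positive arrays. It stood at 14.93 against 15.24 after CCL6 and at 14.33 against 14.49 in unstimulated cells. The CCL6 mean of Dusp1 was higher by 0.59 among the positive and by 0.75 among the negative arrays.

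Dusp5 encodes the ERK-specific nuclear phosphatase, and its 3 highest readings were on the 3 arrays with positive scores. It read 11.56, 11.56 and 9.78 in CCL6 replicates 1 to 3, against 10.57, 10.48 and 11.77 in unstimulated replicates 1 to 3. The highest array was thus unstimulated and the lowest was stimulated. The group means were 10.96 ± 1.03 after CCL6 and 10.94 ± 0.72 in unstimulated cells (SD, n = 3 each), a log2 difference of 0.03 with a 95% interval from -1.19 to 1.25. That interval spans 0.437-fold to 2.37-fold. Of all probe sets above background, 5.47% had a larger spread within groups and 4.14% a larger shift between the positive and the negative arrays, which was 1.35 for Dusp5 and 0.34 at the median. On either side of the division Dusp5 was lower after CCL6, by 0.21 in size among the positive arrays, where it averaged 11.56 in the CCL6 arrays and read 11.77 in the unstimulated array, and by 0.75 among the negative arrays, where it read 9.78 and averaged 10.52 in the same order.

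Dusp2, the lymphoid relative of these inducible genes, was not above background in either group. It read 2.67, 2.64 and 2.63 after CCL6 and 2.29, 2.48 and 2.49 in unstimulated cells. These values did not overlap, but no fold is given at this level. With Dusp4 and Dusp7 it made up the 3 of 8 genes for which all CCL6 arrays lay above all unstimulated arrays, which held for 3.77% of all probe sets. At such readings the array cannot tell a rare transcript from none.

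Of the cytoplasmic ERK phosphatase genes, Dusp7 read 8.36, 8.14 and 7.97 in CCL6 replicates 1 to 3 and 7.60, 7.54 and 7.96 in unstimulated replicates 1 to 3. The groups did not overlap, but CCL6 replicate 3 and unstimulated replicate 3 were nearly equal. Dusp7 averaged 8.16 ± 0.19 after CCL6 and 7.70 ± 0.23 in unstimulated cells (SD, n = 3 each), a 1.37-fold or 0.46 log2 difference (SE 0.24, 95% interval -0.10 to 1.01; limma, unadjusted p = 0.0939). It was higher after CCL6 by 0.29 among the positive and by 0.41 among the negative arrays, signs again fixed by the lack of overlap. For Dusp7 the positive arrays lay above the negative arrays by 0.45 on average, a size exceeded by 38.7% of probe sets above background.

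Dusp6, the classical transcriptional target and inhibitor of ERK in the cytoplasm, was the steadiest of the 7 genes above background. Its arrays read 14.43, 14.47 and 14.17 after CCL6, against 14.25, 14.03 and 14.41 in unstimulated cells, and the groups overlapped. The means were 14.36 ± 0.17 and 14.23 ± 0.19 in that order (SD, n = 3 each). The log2 difference of 0.12 (SE 0.24) had a 95% interval from -0.41 to 0.66, so that differences from 0.751-fold to 1.58-fold were compatible with these arrays. Its spread within groups was exceeded by 89.4% of probe sets above background. Within the positive and the negative arrays Dusp6 differed by 0.04 and 0.02.

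Dusp8, of the JNK and p38 phosphatases, read 6.41, 7.31 and 6.34 in CCL6 replicates 1 to 3, against 5.20, 5.67 and 7.47 in unstimulated replicates 1 to 3. Unstimulated replicate 3 was the highest of all arrays and unstimulated replicate 1 the lowest, so the unstimulated group enclosed the other. The means were 6.68 ± 0.54 after CCL6 and 6.12 ± 1.20 in unstimulated cells (SD, n = 3 each). The log2 difference of 0.57 (SE 0.56) had a 95% interval from -0.70 to 1.84 (limma, unadjusted p = 0.337). Among the positive arrays Dusp8 averaged 6.86 in the CCL6 arrays and read 7.47 in the unstimulated array, a difference of -0.62, whereas among the negative arrays it read 6.34 in the CCL6 array and averaged 5.44 in the unstimulated arrays, a difference of 0.90. The shift between positive and negative arrays was 1.32, exceeded by 4.53% of probe sets above background.

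Dusp10 ran the other way across the division. It read 11.84, 11.62 and 12.35 in CCL6 replicates 1 to 3, against 11.90, 11.89 and 11.55 in unstimulated replicates 1 to 3. CCL6 replicate 3, the lowest array for Dusp5, was the highest for Dusp10, and unstimulated replicate 3, the highest for Dusp5, was the lowest. The positive arrays lay below the negative arrays by 0.38 on average, although this size was exceeded by 45.9% of probe sets above background. Dusp10 was higher after CCL6 by 0.19 among the positive and by 0.45 among the negative arrays. The group means of 11.94 ± 0.37 after CCL6 and 11.78 ± 0.20 in unstimulated cells (SD, n = 3 each) differed by 0.16 (SE 0.27, 95% interval -0.46 to 0.78).

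**Figure D2:**
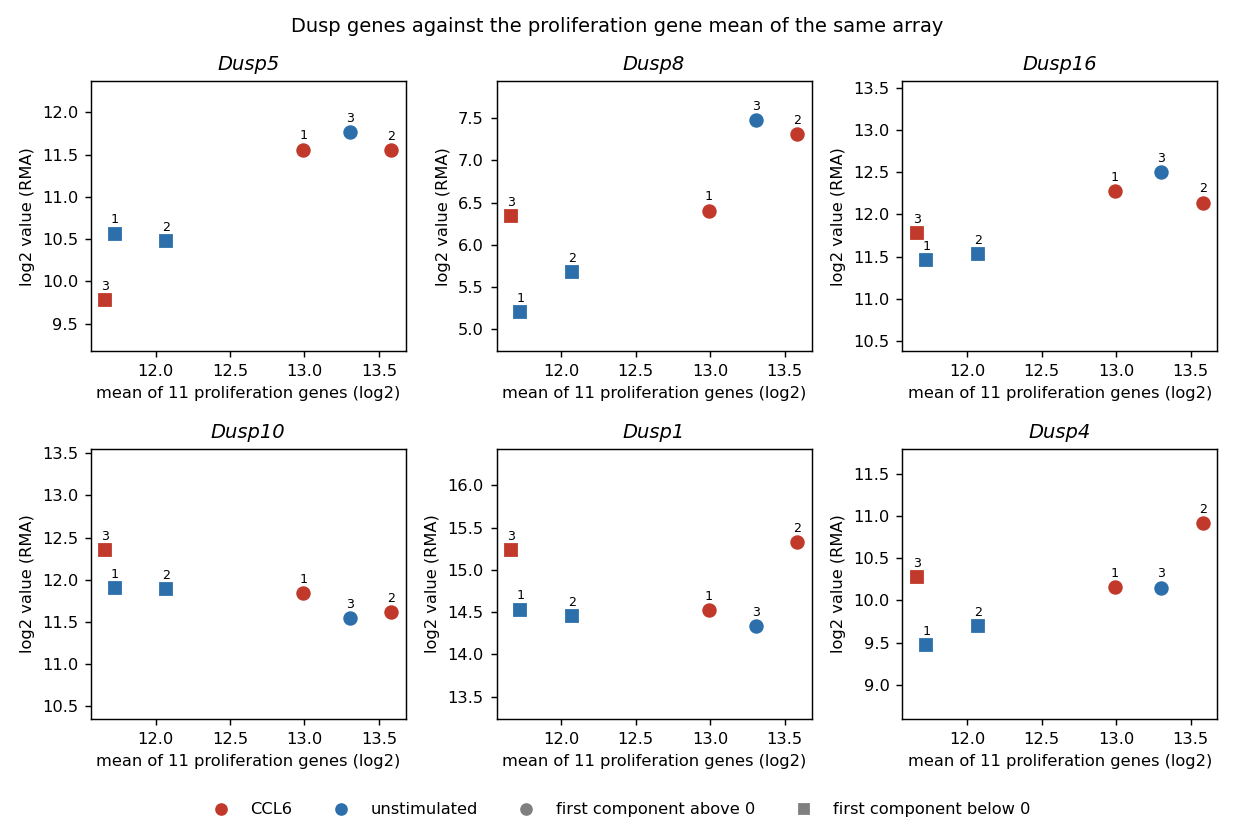
Log2 value of 6 Dusp genes on each array (vertical axis, 3.2 log2 units per panel) against the mean log2 value of 11 proliferation genes on the same array (horizontal axis), in CCL6 (red) and unstimulated cells (blue), with replicate numbers. Dusp4, Dusp5, Dusp8 and Dusp16 average higher on the 3 arrays with a proliferation mean of 12.99 or more, and Dusp10 lower. Dusp1 is high in CCL6 replicates 2 and 3 at 13.58 and 11.66.

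The remaining typical MAP kinase phosphatases were Dusp16, a JNK and p38 phosphatase gene, and Dusp9, which encodes a cytoplasmic ERK phosphatase. Dusp16 read 12.27, 12.14 and 11.77 after CCL6 and 11.46, 11.53 and 12.50 in unstimulated cells. As with Dusp5 and Dusp8, unstimulated replicate 3 was its highest array, and the shift between positive and negative arrays was 0.72. Its means of 12.06 ± 0.26 and 11.83 ± 0.58 in the same order (SD, n = 3 each) differed by 0.23 (SE 0.33). Dusp9 was not above background, with means of 3.61 and 3.77 in that order.

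Because CCL6 replicate 3 and unstimulated replicate 3 lay apart from their groups, the fit was repeated without both and, separately, with a block for the sign of the first component. Both choices rest on these same arrays, so the p-values are not independent of the values tested. Without both, the remaining CCL6 arrays had positive scores and the remaining unstimulated arrays negative ones, so that treatment and the division of the arrays cannot be told apart in that fit. Without both arrays numbered 3, Dusp8 differed by 1.42, Dusp5 by 1.03, Dusp4 by 0.96, Dusp7 by 0.68 and Dusp1 by 0.44. The first 4 of these 5 genes had an unadjusted limma p under 0.05, or 4 of 8, where 11.2% of all probe sets did, and their adjusted p lay between 0.231 and 0.417. Dusp10 was then lower, at -0.17. With the block Dusp1 differed by 0.67 (95% interval 0.04 to 1.30, unadjusted p = 0.0405, adjusted p = 0.795), Dusp4 by 0.54, Dusp7 by 0.35 and Dusp10 by 0.32. Dusp8 came to 0.14, Dusp6 to 0.03 and Dusp5 to -0.48. That made 1 of 8 at an unadjusted p under 0.05, where 6.15% of all probe sets had one, and 0 of 8 after adjustment.

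**Figure D3:**
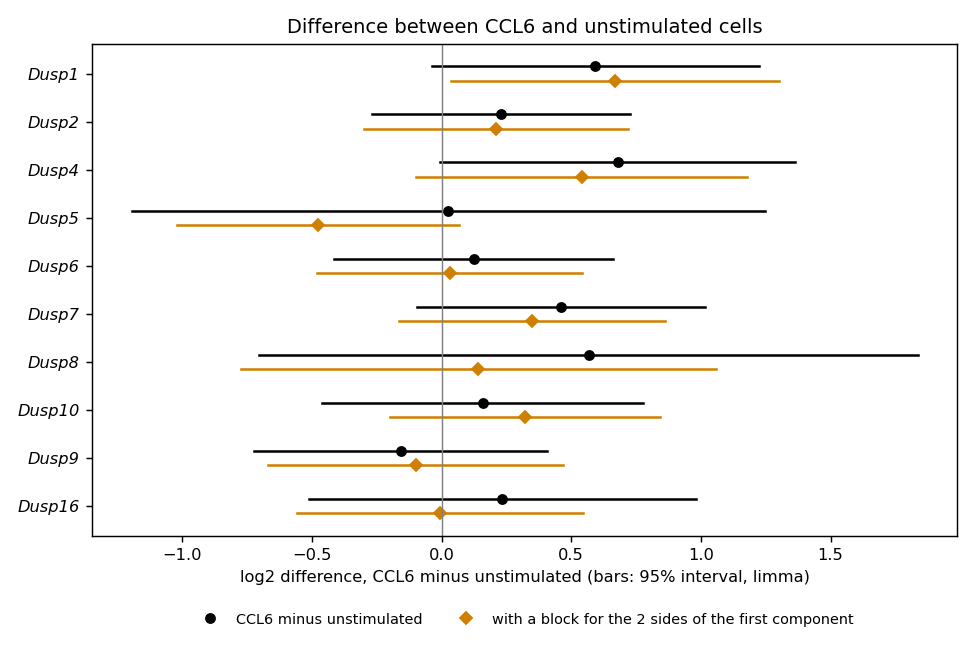
Log2 difference between CCL6 and unstimulated cells (horizontal axis) for the 8 Dusp genes and the related Dusp9 and Dusp16, with 95% intervals from limma, in the fit of all 6 arrays (black) and with a block for the 2 sides of the first component (orange). Dusp1, Dusp4 and Dusp7 keep values between 0.35 and 0.68 in both fits, and Dusp5 lies at 0.03 and -0.48.

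Leaving out single arrays separated the genes further. Over the 6 fits Dusp1 ran from 0.44 to 0.84, Dusp4 from 0.44 to 0.87, Dusp7 from 0.36 to 0.59 and Dusp6 from 0.02 to 0.22. Dusp8 ran from 0.11 without unstimulated replicate 1 to 1.25 without unstimulated replicate 3. The sign of Dusp5 was set by single arrays, since it was 0.62 without CCL6 replicate 3 and 0.44 without unstimulated replicate 3 but negative, down to -0.27, without any of the other 4. Dusp10 turned to -0.05 without CCL6 replicate 3 and was otherwise between 0.04 and 0.32.

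**Figure D4:**
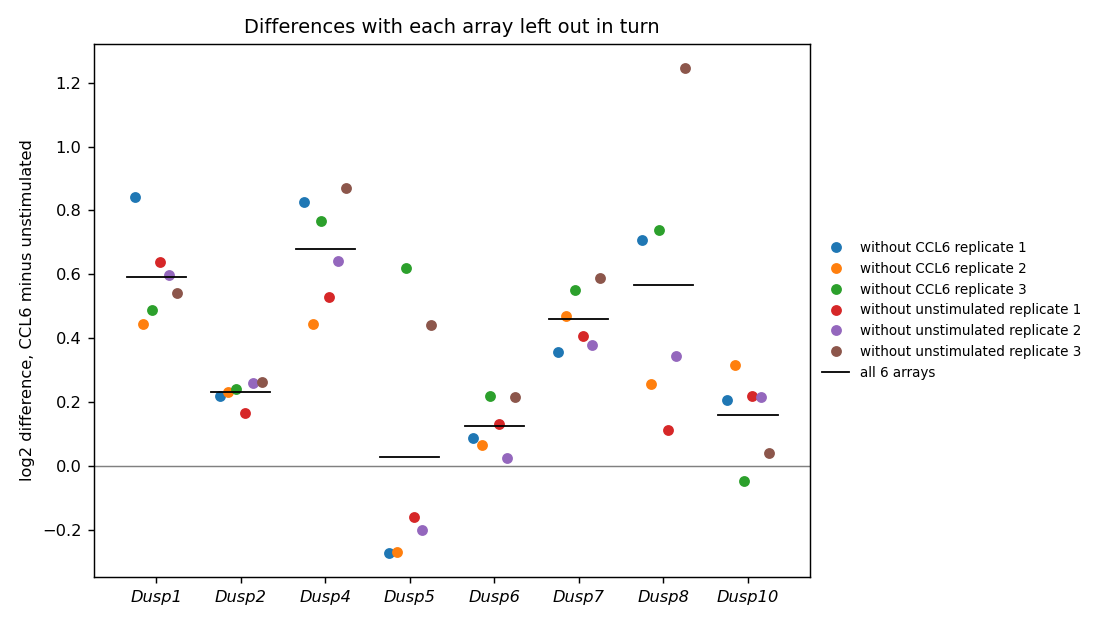
Log2 difference between CCL6 and unstimulated cells (vertical axis) for each Dusp gene with 1 array left out in turn (coloured points) and with all 6 arrays (black line). Points of Dusp1, Dusp4 and Dusp7 stay above 0.35, whereas those of Dusp5 fall on both sides of 0.

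The genes around these phosphatases were read from lists, each taken over its probe sets above background. No gene of these lists passed an adjusted p under 0.05 with limma. Of 11 atypical Dusp and Styx probe sets, which belong to smaller phosphatases without a MAP kinase docking domain, 5 were higher and 6 lower. Their median was -0.05, and 0 were at an unadjusted p under 0.05, where 3.08% of all probe sets were. Dusp18 differed by 0.55 (SE 0.35), the pseudophosphatase gene Styx by 0.40 (SE 0.28), Dusp14 by 0.31 (SE 0.25) and Dusp19 by -0.47 (SE 0.35). Their median thus lay close to that of all probe sets, and the groups overlapped for each of these 4 genes.

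The MAP kinases, on which the phosphatases act, and the kinases that activate them were covered by 14 of 17 listed genes. The other 3 were not analysed here. Of 12 probe sets above background 8 were higher and 4 lower. The median was 0.13, and 1 had an unadjusted p under 0.05, where 3.08% of all probe sets did. That was Map2k6, an activator of p38, which read 6.26, 6.65 and 6.31 after CCL6 and 5.01, 6.17 and 5.16 in unstimulated cells. All its CCL6 arrays lay above all unstimulated arrays, as held for 3.77% of all probe sets, but CCL6 replicate 1 and unstimulated replicate 2 were close. Unstimulated replicates 1 and 3 lay not far above the background of 4.85. The difference of Map2k6 was 0.96 (SE 0.34; limma, unadjusted p = 0.0200), and the methods' t-test gave an unadjusted p of 0.0671. Mapk7, which encodes ERK5, differed by 0.30 (SE 0.26), its activator Map2k5 by 0.27 (SE 0.27) and the p38 gene Mapk14 by 0.21 (SE 0.30), each with overlap. Of the other MAP kinase phosphatases, 4 of 5 probe sets were higher, with a median of 0.19. These included the tyrosine phosphatase gene Ptpn7 at 0.28 (SE 0.25) and the serine and threonine phosphatase genes Ppm1a at 0.22 (SE 0.25), Ppm1b at 0.19 (SE 0.25) and Ppm1d at 0.03 (SE 0.23).

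Other genes that ERK induces gave a mixed picture, with 14 of 22 probe sets above background in both groups higher and 8 lower, and a median of 0.13. A probe set of Egr3 and that of Fosb lay above background in 1 group only. The immediate early gene Fos was the 1 gene of the list with an unadjusted p under 0.05, where 3.08% of all probe sets had one. It read 5.46, 5.79 and 5.04 after CCL6 and 7.65, 6.10 and 5.85 in unstimulated cells. It was lower in every CCL6 array (difference -1.11, SE 0.46, unadjusted p = 0.0410), and unstimulated replicate 1 held the highest reading, without which the difference was -0.55. The EGF receptor ligand gene Hbegf differed by -0.57 (SE 0.27), and the Ras pathway inhibitor gene Spred2 by 0.55 (SE 0.34). The Fos relative Fosb averaged 4.57 after CCL6, which is not above background, and 4.99 in unstimulated cells. Fos and Dusp4, both transcribed downstream of ERK, thus differed in opposite directions at 6 h, and neither passed the adjusted threshold. Of 9 probe sets for JNK and p38 output, 5 were higher and 4 lower, with a median of 0.04. They included the prostaglandin synthase gene Ptgs2 at 0.66 (SE 0.48), the stress gene Gadd45g at -0.62 (SE 0.41), Zfp36, an mRNA decay factor gene, at -0.56 (SE 0.44), and Gadd45b at -0.46 (SE 0.31). Single arrays weighed heavily on several of these values. Without 1 array Ptgs2 ran from 0.15 to 1.00, Gadd45g from -1.03 to -0.30, Zfp36 from -0.97 to -0.18 and Gadd45b from -0.78 to -0.30. Over the same fits Spred2 ran from 0.23 to 0.83, Dusp18 from 0.23 to 0.74, Styx from 0.16 to 0.58 and Dusp19 from -0.66 to -0.19.

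**Figure D5:**
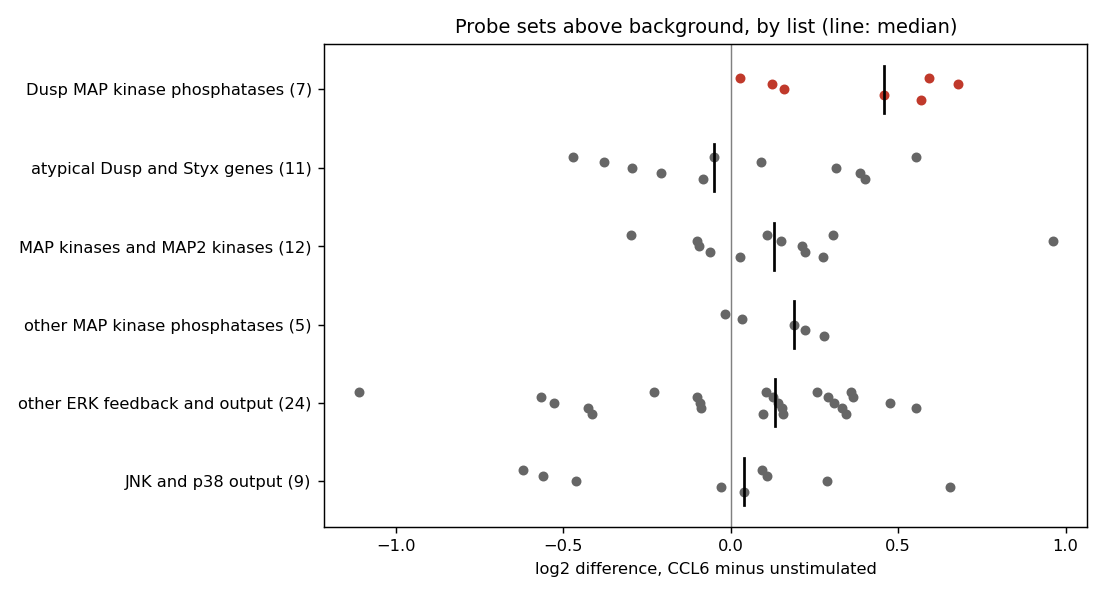
Log2 difference between CCL6 and unstimulated cells (horizontal axis) for probe sets above background, grouped by list with the number of probe sets in brackets and the median as a black line. The 7 Dusp genes lie between 0.03 and 0.68 with a median of 0.46, and the medians of the other lists drawn lie between -0.05 and 0.19. The proliferation genes, not drawn, had a median of 0.44.

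Likeness of pattern was measured as the root mean square difference between log2 values, each gene centred on its own mean over the 6 arrays, among 11269 named probe sets above background. Values were not scaled for spread, so steady genes lie close to a steady profile such as that of Dusp6. Distances therefore cannot be compared between profiles. The mean profile of the 7 Dusp genes read 0.14, 0.44 and -0.02 in CCL6 replicates 1 to 3, against -0.39, -0.36 and 0.20 in unstimulated replicates 1 to 3. Closest to it were Metap2, St3gal2, Dcbld2, Rhbdl1 and Chd6, at 0.0572 to 0.0697, where the median over all candidates was 0.443. Dusp1 was most like Gm7104, Rnf216, Atxn7, Cipc and Defb36 (0.119 to 0.143). For Dusp4 the closest were Tsn, Prkca, Trib2, Pnn and Snx19 (0.100 to 0.138). Dusp6 was most like Limk2, Folr1, Zfp36l2, Mcat and Pgk1 (0.0429 to 0.0539). None of these 20 genes was among the 5 closest to more than 1 of these profiles.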

How the data were processed

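Biotin-labelled total RNA from 6 cultures was read on Clariom S mouse arrays. The deposited values are log2 values that the authors obtained with RMA, a method that subtracts background, brings the arrays to one distribution and summarises each probe set. Neither its version nor a genome build was given in the sources used here. No source states the log base, and 2 was assumed because RMA usually gives it. The values span 1.93 to 19.2, which does not settle the base, and every fold difference given rests on this assumption. A shift of most transcripts at once would be hidden by this normalization.

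The platform annotation gave 1 symbol to 19572 of 22206 probe sets and several to 0, and 2634 were unnamed. All 19572 were matched to RefSeq by identifier, with 0 symbols changed. Group differences were fitted to the 6 arrays with limma 3.58.1 (lmFit, eBayes; R 4.3.3). Tests were two-sided and adjusted by Benjamini-Hochberg over every probe set, with 0.05 as the threshold. The study states no test for the arrays, so its general Student's test was tried as an alternative, called the methods' t-test. A probe set with both group means at or below the receptor-based level was not above background. The fit was tested on simulated data, with noise independent between arrays and so without the division seen here. The smallest changes tried, larger than any difference of the 8 genes in the fit of all arrays, did not pass the adjusted threshold. Larger ones mostly did, so that counts of 0 do not show that these genes did not differ.

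All 8 phosphatase genes, Dusp9 and Dusp16 were named, with up to 4 genes above background of smallest unadjusted p from each further list and the 5 genes closest to each profile. The members and lists were chosen with earlier results of these data known, and the promoter motifs after the values were seen. Alternatives were 2 normalizations, a trended robust variance, array weights, a replicate block, a block for the first component, fits without arrays, a background filter and the t-test.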

Additional observations from a re-analysis of the deposited data

How the results depend on the processing

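In all 15 alternatives 0 of the 8 Dusp genes had an adjusted p under 0.05. The number of probe sets that did was 0 throughout except for 1 with the methods' t-test. Of the 8 genes, the number with an unadjusted p under 0.05 was 0 with all arrays, 1 after median centring (3.03% of all probe sets), 1 with an intensity trend and robust variances (2.98%), 1 with the array set block (6.15%), 1 with the t-test (3.66%), 3 with array weights (4.18%) and 4 without both arrays numbered 3 (11.2%). It was between 0 and 2 when single arrays were left out, with 2 without CCL6 replicate 1 (3.04%) and 2 without unstimulated replicate 3 (4.53%). The direction held in 112 of 119 refits of single members. The trended robust variance, replicate block, background filter and t-test leave the difference itself unchanged, so their part of this count was fixed. For Dusp2, Dusp4 and Dusp7, whose groups did not overlap, fits without arrays could not change the sign either. Dusp5 turned to -0.48 with the array set block and ran from -0.27 to 0.62 over the fits without 1 array. Dusp10 turned to -0.17 without both arrays numbered 3 and ran from -0.0485 to 0.32 over the fits without 1 array. Dusp16 came to -0.00545 with the array set block. Without both arrays numbered 3, Dusp18 came to -0.00324, Map2k5 to -0.0176, Ppm1a to -0.00993, Ppm1d to -0.0215 and Ptgs2 to -0.12. Without 1 array, Mapk14 ran from -0.0165 to 0.44 and Ppm1d from -0.0637 to 0.11. The cause was not tested. The median difference of the 8 genes kept its sign in all 15, from 0.19 to 0.52 without single arrays. That too was fixed in the alternatives that leave the differences unchanged. The labels give both groups the numbers 1 to 3, but deviations of same-numbered arrays correlated at -0.08, -0.23 and -0.66, so the numbers were not taken to pair the samples. With the replicate block 474 probe sets had an unadjusted p under 0.05 instead of 685, 0 of the 8 genes were among them, and the median was again 0.34.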
